A study of Sus scrofa with 4 samples.

Results

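The cytochrome P450 enzymes are described here in lung cells sorted from LGR5-H2B-GFP knock-in pigs. Members were the genes of the count tables whose name begins with CYP, a family number and a subfamily letter, apart from the retinoic acid-degrading genes CYP26A1, CYP26B1 and CYP26C1. This rule goes by name alone and gave 35 of 29263 genes, but the family was picked with earlier results of these data known. All 4 libraries came from lung cells of the same genotype, sorted by green fluorescence into the groups GFP-HI and GFP-NEG, with biological replicates 1 and 2 in each. No wild-type, untreated or unsorted sample is among them, so the reporter allele is shared by both groups. The protocol covers adult and fetal lung and names antibodies against EPCAM and NGFR. Only the name of the authors' comparison table speaks of adult pig, and the gates used for these libraries are not given in the sources used here. A histone fused to GFP is a long-lived protein in general, so that GFP-HI cells need not all have been transcribing LGR5 when sorted.

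P450 enzymes are haem proteins that insert an oxygen atom into lipophilic molecules. Most sit in the endoplasmic reticulum and take electrons from P450 oxidoreductase (POR), whereas the mitochondrial members take them through adrenodoxin (FDX1) and its reductase (FDXR). Some families clear drugs and inhaled chemicals, and others make or inactivate fatty acid mediators, bile acids, oxysterols, vitamin D and steroid hormones. In lung, P450 activity is classically ascribed to club cells, alveolar type 2 cells, endothelium and macrophages.

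Library totals were 24200550 and 24689986 counts in GFP-HI against 6292253 and 7045652 in GFP-NEG, so depth and group cannot be told apart. Levels below are CPM, the customary depth-normalised counts, after TMM scaling (a correction for differences in RNA composition), and 1 count was worth 0.0453 and 0.0496 CPM in the GFP-HI libraries and 0.155 and 0.110 CPM in the GFP-NEG libraries. LGR5 itself had 3218 and 3073 counts in GFP-HI against 10 and 7 in GFP-NEG, in the direction of the labels. Despite the lower depth, GFP-NEG had at least 1 count for 24120 and 25985 genes, against 18752 and 18392 in GFP-HI. The same held for P450 genes, with 32 detected in each GFP-NEG library and 27 and 25 in the GFP-HI libraries. Summed over the 35 genes, P450 transcripts made up 830 and 701 CPM in GFP-HI and 835 and 408 CPM in GFP-NEG, and these ranges overlapped. CPM is not corrected for transcript length, so levels are compared between libraries and not between genes.

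Did the P450 genes differ between reporter-bright and reporter-negative cells? Of the 35 genes, 26 had enough counts to be tested, 2 were higher in GFP-HI (CYP21A2 and CYP7A1), 7 were lower (CYP1A1, CYP2C42, CYP2S1, CYP3A29, CYP4F3, CYP8B1 and CYP19A1) and 17 were not past the threshold, an adjusted p under 0.05 in edgeR's quasi-likelihood test over all genes. Of the lower genes, CYP1A1 and CYP19A1 were at 0 in GFP-HI and passed the count filter through GFP-NEG alone. Their p-values are thus no separate support. Among all 19682 genes tested, 8.35% were called higher and 27.6% lower, 36% in all. The P450 shares of 7.69% and 26.9% lie near this background, so the counts of calls do not set the family apart. Counts of calls in the substrate groups and gene lists below are to be read against the same background. No group or list was tested as a set. The median log2 fold change (GFP-HI over GFP-NEG) was -0.23 over the tested P450 genes, and also -0.23 with the genes that are at 0 in GFP-HI placed at their bound, against -0.25 over all tested genes. The sign of the P450 median was not stable: it was 0.38 without GFP-NEG replicate 1 and 0.23 with the replicate block, which compares the libraries within each replicate number. The median of all tested genes was -0.26 in both of these fits. Without GFP-HI replicate 2 both higher genes lost their call and 5 genes were called lower, and without GFP-NEG replicate 2 the counts were 1 higher and 3 lower, where calls over all genes also fell to 204 higher and 1373 lower. With GFP-NEG replicate 1 left out, 3 P450 genes were higher, CYP7B1 among them, and 7 lower. With 2 libraries a group, the edgeR p-values rest on the spread between these libraries only. They and the SE take a spread shared by genes of like abundance, since the fitted prior degrees of freedom were infinite. A gene's own spread between libraries did not widen them, so a gene with overlapping groups can be called.

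The groups did not overlap for 16 of the 26 tested P450 genes, 6 of them higher and 10 lower in GFP-HI. Over all tested genes these shares were 27.7% and 42%. Within replicates, 9 tested P450 genes were higher in GFP-HI in both, 11 were lower in both and 6 of 26 differed in opposite directions, against 20.0% of all tested genes.

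Markers of other cell types moved with the group. Of 9 tested lymphocyte genes 8 were lower in GFP-HI (summed level 164 and 383 CPM against 1269 and 2365 CPM), as were 6 of 8 for macrophages and neutrophils (233 and 142 CPM against 1959 and 1128 CPM) and 6 of 7 for endothelium (197 and 197 CPM against 1308 and 549 CPM). No listed gene of these 3 classes in the tables was at 0 in both GFP-HI libraries. In bulk samples fewer cells of a type and less RNA per cell cannot be told apart, and the part of these cells in the lower P450 genes was not tested. The 6 tested club cell genes did not pass the threshold (229 and 442 CPM against 930 and 243 CPM), and 2 of 6 alveolar type 2 genes were lower (137 and 283 CPM against 451 and 189 CPM). Of 8 fibroblast genes 5 were higher. COL1A1, COL1A2 and COL3A1 did not pass the threshold (log2 fold changes of 1.88 ± 1.53, 1.79 ± 1.76 and 2.16 ± 1.55 SE, edgeR). Both GFP-HI libraries lay above both GFP-NEG libraries for each, as they did for 27.7% of all tested genes. In the smooth muscle and pericyte list 2 of 8 genes were higher and 3 lower, and 1 of 5 ciliated cell genes was higher.

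**Figure D1:**
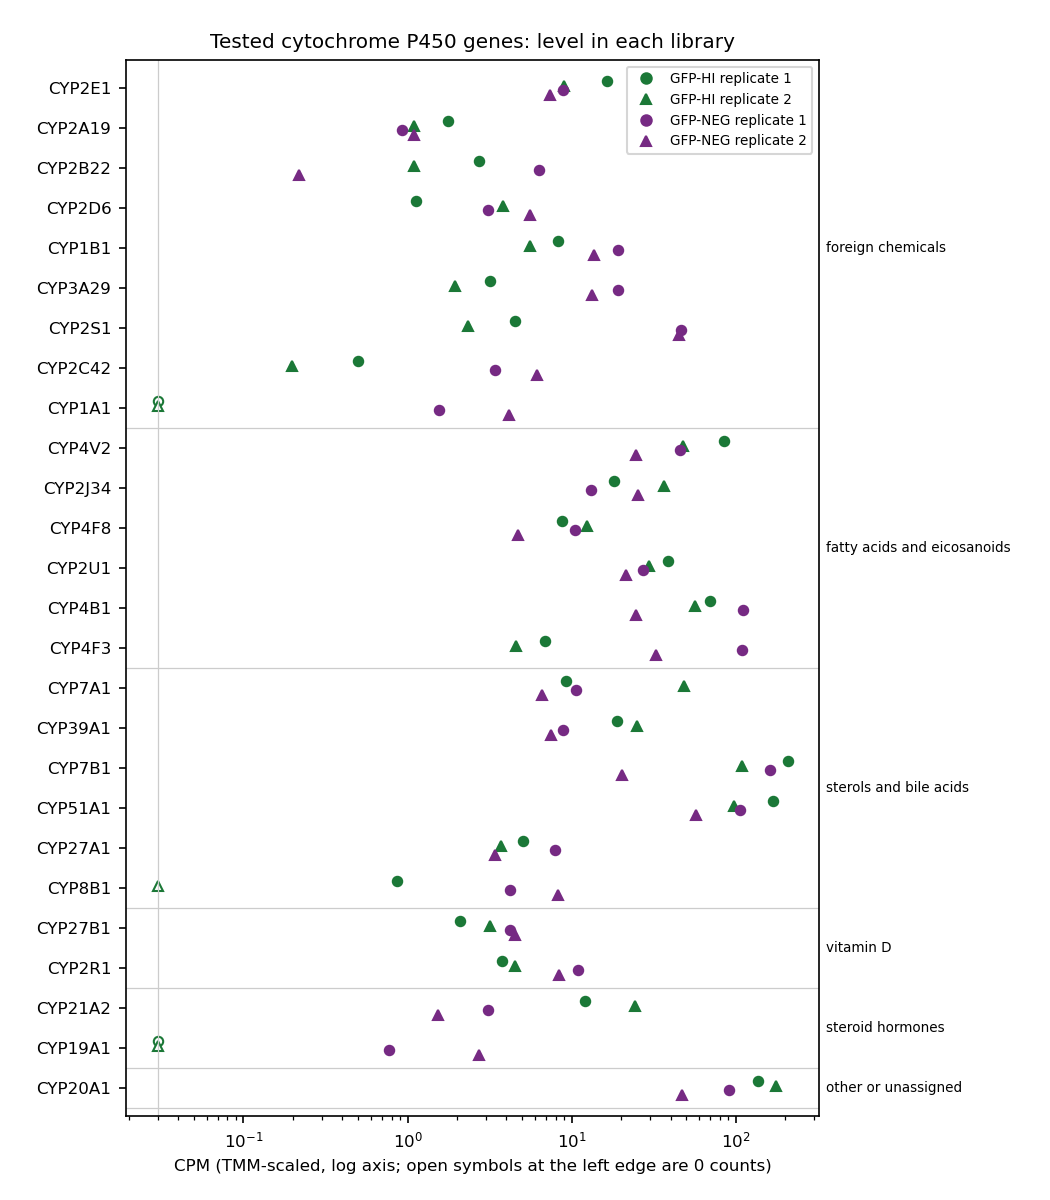
CPM of the 26 tested P450 genes in each of the 4 libraries on a log axis, grouped by the substrates of their families; colour gives the group and symbol shape the replicate, and open symbols mark 0 counts. CYP2S1, CYP3A29 and CYP2C42 show both GFP-NEG libraries to the right of both GFP-HI libraries, while CYP4B1 and CYP7B1 have their 2 GFP-NEG libraries far apart.

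**Figure D2:**
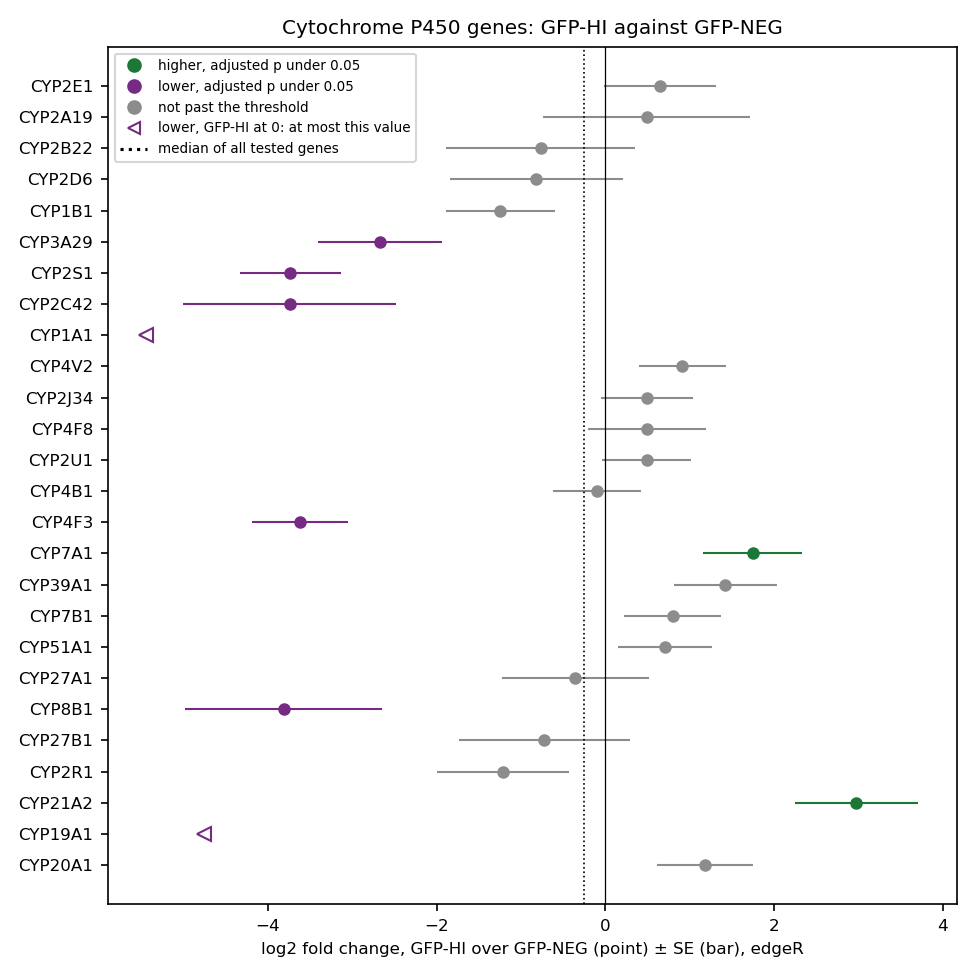
Log2 fold change of GFP-HI over GFP-NEG (points) with its standard error (bars) for the 26 tested P450 genes, coloured by the call. CYP1A1 and CYP19A1, which had 0 counts in GFP-HI, are open arrowheads. These stand at the value from a floor of 3 counts over GFP-HI and the pooled GFP-NEG counts. The 2 higher and 7 lower genes stand on either side of the dotted median of all tested genes (-0.25).

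Among the families that handle foreign chemicals, 12 genes were members and 9 were tested. Of these, 4 were lower in GFP-HI and the other 5 did not pass the threshold (edgeR), where 27.6% of all tested genes were lower. CYP2S1, an enzyme found mainly outside the liver in epithelia and myeloid cells, was at 4.49 and 2.33 CPM in GFP-HI and at 46.3 and 44.8 CPM in GFP-NEG. Both reporter-negative libraries were close to each other and far above the reporter-bright ones. On the log2 scale CYP2S1 fell by 3.74 ± 0.60 (SE; adjusted p of 4.7e-08, edgeR), and leaving out 1 library at a time gave values of -4.21 to -3.31.

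CYP3A29, a pig member of the subfamily that metabolises a large share of drugs in human liver, was at 3.17 and 1.93 CPM in GFP-HI and at 19.3 and 13.4 CPM in GFP-NEG. It fell by 2.67 ± 0.73 (SE) on the log2 scale (adjusted p of 0.0013, edgeR), a call kept under each of the 13 alternatives. RefSeq lists 3 genes of this subfamily in the pig assembly Sscrofa11.1, but the tables have 1 row named for it. Reads from the relatives of CYP3A29 could be counted there, counted in rows without a gene name, or lost. CYP2C42 was at 0.498 and 0.198 CPM in GFP-HI and at 3.42 and 6.14 CPM in GFP-NEG, again without overlap. Its log2 fold change of -3.74 ± 1.26 (SE; adjusted p of 0.011, edgeR) rests on few counts (11 and 4 against 22 and 56). The call was lost without GFP-HI replicate 2 (0.13, edgeR) or GFP-NEG replicate 2 (0.21), and the value was -4.45 without GFP-HI replicate 1. DESeq2 with the replicate block gave an adjusted p of 0.069. For CYP2C the assembly lists 7 genes against 1 row of that name in the tables, and a pseudogene, CYP2C91, overlaps CYP2C42.

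CYP1A1, the classical target of the aryl hydrocarbon receptor (AHR) and an activator of polycyclic hydrocarbons, had 0 counts in both GFP-HI libraries. GFP-NEG held 10 and 38 counts, or 1.55 and 4.17 CPM. CYP1A1 thus passed the count filter through GFP-NEG alone. Set against a floor of 3 counts over the GFP-HI group (0.0710 CPM), it was at least 43.4-fold lower there (adjusted p of 1.4e-04, edgeR; 0.16 without GFP-NEG replicate 2). Its neighbour CYP1A2, also a target of AHR, had 0 and 0 counts against 2 and 26, at least 25.3-fold lower, and was too low to be tested. Here and below, "at least" concerns the floor alone. The fold divides the pooled GFP-NEG level by the floor and leaves out the counting error and spread of GFP-NEG. CYP1B1, the third member of the family and the one most expressed outside the liver, was at 8.20 and 5.60 CPM in GFP-HI and 19.1 and 13.7 CPM in GFP-NEG. The groups did not overlap, but the log2 fold change of -1.25 ± 0.64 (SE) was not past the threshold (adjusted p of 0.12, edgeR; 0.049 when scaled by library size alone).

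CYP2E1, which oxidises ethanol and small solvents, was at 16.4 and 9.02 CPM in GFP-HI against 8.85 and 7.34 CPM in GFP-NEG (log2 fold change 0.65 ± 0.67 SE, adjusted p of 0.48, edgeR). Its groups were apart by little. The other tested members of these families, CYP2A19, CYP2B22 and CYP2D6, lay between 0.219 and 6.37 CPM in every library, with overlapping groups. CYP2F1, a lung enzyme known from club cells, had 6 and 4 counts in GFP-HI against 2 and 3 in GFP-NEG, too few to be tested. At the unequal depths these were 0.272 and 0.198 CPM against 0.311 and 0.329 CPM. CYP2W1 had 0 and 0 counts against 7 and 4, at least 9.95-fold lower at the same floor, and was not tested either.

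**Figure D3:**
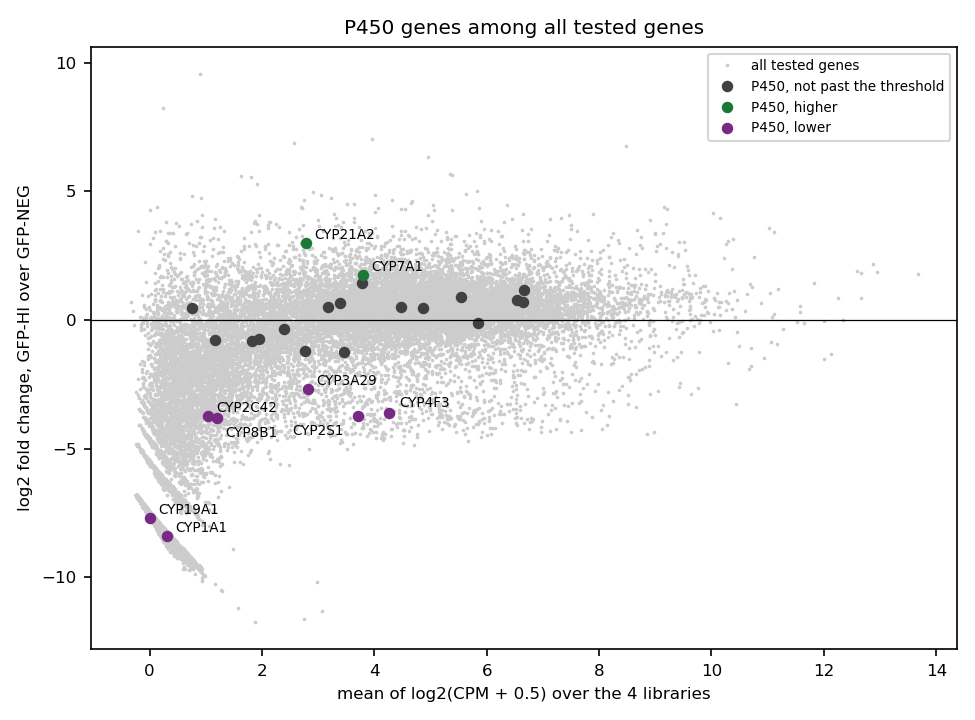
Fitted log2 fold change of GFP-HI over GFP-NEG against the mean of log2(CPM + 0.5) over the 4 libraries, with the 19682 tested genes in grey and the 26 tested P450 genes as large points, the 9 called genes named. CYP2S1 and CYP4F3 are called lower at moderate abundance, whereas CYP1A1 and CYP19A1 lie among the many low genes with 0 counts in GFP-HI, whose fitted values depend on the prior count.

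The P450 genes of fatty acid and eicosanoid metabolism numbered 8, of which 6 were tested and 1 was lower in GFP-HI. This was CYP4F3, which inactivates leukotriene B4 by omega-hydroxylation and is best known from neutrophils. It was at 6.89 and 4.56 CPM in GFP-HI and at 109 and 32.4 CPM in GFP-NEG. The reporter-negative libraries differed from each other, but the lower one was still above both reporter-bright ones. Of the macrophage and neutrophil list, 6 of 8 genes were lower in the same comparison, and its part in CYP4F3 was not tested. On the log2 scale CYP4F3 fell by 3.62 ± 0.57 (SE; adjusted p of 2.5e-08, edgeR). It was -2.50 without GFP-NEG replicate 1 and -4.24 without GFP-NEG replicate 2, and the call was kept in both. A further row of the tables, ENSSSCG00000032765, carries the same symbol in the gene name table and had 0 and 0 counts in GFP-HI against 1 and 19 in GFP-NEG. It is no member by name, and reads of the CYP4F genes may be split between such rows.

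CYP4B1, a lung enzyme known for activating pneumotoxic furans, was at 70.0 and 56.1 CPM in GFP-HI, between the GFP-NEG values of 111 and 24.7 CPM. Its log2 fold change of -0.10 ± 0.52 (SE; adjusted p of 0.91, edgeR) was 0.26 with the replicate block and 1.35 without GFP-NEG replicate 1. The 2 GFP-NEG libraries also differed in fibroblast transcripts: the 8 listed fibroblast genes summed to 25212 and 9002 CPM there and to 81118 and 71308 CPM in GFP-HI. The part of this difference in the P450 values was not tested.

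The remaining tested members of this group had point estimates above 0 that did not pass the threshold. CYP4V2, a fatty acid hydroxylase whose loss causes a crystalline retinal dystrophy in humans, was at 84.4 and 47.8 CPM in GFP-HI and 45.8 and 24.6 CPM in GFP-NEG (log2 fold change 0.91 ± 0.52 SE, adjusted p of 0.17, edgeR). CYP2U1, a fatty acid hydroxylase, was at 38.8 and 29.6 CPM against 27.3 and 21.5 CPM (0.49 ± 0.53 SE, adjusted p of 0.51). Both genes had their groups apart, by less than the spread within a group. CYP2J34, a pig member of the subfamily that makes epoxides from arachidonic acid, was at 18.2 and 36.3 CPM against 13.2 and 25.4 CPM, and CYP4F8 at 8.70 and 12.4 CPM against 10.4 and 4.71 CPM. Their groups overlapped. CYP4A24 had 0 and 0 counts in GFP-HI against 1 and 43 in GFP-NEG, so its GFP-NEG signal came almost wholly from replicate 2 (at least 39.8-fold lower at the floor of 3 counts over the group), and CYP4F22 had 0 and 0 against 0 and 4. Neither was tested.

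Sterol and bile acid P450 genes numbered 7, of which 6 were tested: 1 was higher (CYP7A1), 1 lower (CYP8B1) and 4 not past the threshold. CYP7A1, the rate-limiting enzyme of bile acid synthesis in liver, was at 9.20 and 48.1 CPM in GFP-HI and at 10.6 and 6.58 CPM in GFP-NEG. Only GFP-HI replicate 2 stood above the rest, and the groups overlapped. The log2 fold change of 1.74 ± 0.58 (SE; adjusted p of 0.010, edgeR) was 0.13 without that library (adjusted p of 0.93), 2.56 without GFP-HI replicate 1 (0.011) and 1.44 without GFP-NEG replicate 2 (0.25). With the replicate block it was 1.34 (adjusted p of 0.081; 0.28 with the block in DESeq2). The authors' deposited table gives 1.74 and an adjusted p of 0.073.

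In RefSeq's Sscrofa11.1 annotation the CYP7A1 gene overlaps SDCBP, the syntenin gene, over 14620 bases. SDCBP had 11959 and 16478 counts in GFP-HI against 5061 and 5725 in GFP-NEG. In CPM these were 542 and 817 against 786 and 628, with overlapping groups. CYP7A1 made up 1.67% (95% exact binomial interval 1.45 to 1.91) and 5.56% (5.22 to 5.91) of the counts of both genes in GFP-HI, and 1.33% (1.03 to 1.68) and 1.04% (0.792 to 1.33) in GFP-NEG. These intervals cover counting error only. The overlap is of whole gene spans, introns included, and shared exons were not looked for. No source states a strand setting, so reads from any shared exon could not be told apart. The part of SDCBP in the CYP7A1 counts was not tested.

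CYP8B1, which sets the ratio of cholic to chenodeoxycholic acid in liver, had 19 and 0 counts in GFP-HI (0.861 and 0 CPM) against 27 and 75 in GFP-NEG (4.19 and 8.22 CPM). CYP8B1 fell by 3.81 ± 1.17 (SE) on the log2 scale (adjusted p of 0.0045, edgeR). It was -9.17 without GFP-HI replicate 1, where the remaining library is at 0, and it lost its call without GFP-HI replicate 2 (-2.80, adjusted p of 0.13) and without GFP-NEG replicate 2 (-3.25, 0.14). CYP8B1 overlaps the zinc finger gene ZNF662 over 1506 bases in the RefSeq annotation, again counting whole gene spans. ZNF662 had 73 and 33 counts in GFP-HI (3.31 and 1.64 CPM) against 27 and 62 in GFP-NEG (4.19 and 6.80 CPM). It lay lower in GFP-HI, as CYP8B1 did, but was not past the threshold (-1.15 ± 0.97 SE, adjusted p of 0.38, edgeR). The part of ZNF662 in the CYP8B1 counts was not tested. CYP8B1 held 20.7% (95% exact binomial interval 12.9 to 30.4) and 0% (0 to 10.6) of the counts of the pair in GFP-HI, and 50.0% (36.1 to 63.9) and 54.7% (46.0 to 63.3) in GFP-NEG.

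CYP7B1 hydroxylates oxysterols and so shapes the ligands of the immune cell receptor GPR183. It was at 206 and 109 CPM in GFP-HI and at 161 and 20.4 CPM in GFP-NEG. One reporter-negative library thus lay inside the GFP-HI range. The log2 fold change of 0.80 ± 0.57 (SE) was not past the threshold (adjusted p of 0.29, edgeR). It passed without GFP-NEG replicate 1 (2.95, adjusted p of 0.0061) and was -0.03 without GFP-NEG replicate 2. CYP39A1, an oxysterol hydroxylase of the same route, was at 18.8 and 24.9 CPM in GFP-HI and at 8.85 and 7.45 CPM in GFP-NEG, a difference wider than the spread within either group. Its log2 fold change of 1.42 ± 0.61 (SE) missed the threshold (adjusted p of 0.052, edgeR), and it passed with the replicate block (1.41, adjusted p of 0.034) and with no filter on low counts (0.045). It did not pass with DESeq2 and the block (0.198) or with any 1 library left out (0.065 to 0.305).

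CYP51A1, the lanosterol demethylase of cholesterol synthesis, was at 169 and 96.8 CPM in GFP-HI and 105.3 and 57.4 CPM in GFP-NEG (log2 fold change 0.71 ± 0.56 SE, adjusted p of 0.34, edgeR). CYP27A1, the mitochondrial sterol hydroxylase that starts the acidic bile acid route, was at 5.07 and 3.72 CPM against 7.92 and 3.40 CPM (-0.36 ± 0.87 SE, adjusted p of 0.79, and 0.37 without GFP-NEG replicate 1). Groups overlapped for both. CYP46A1, the cholesterol hydroxylase best known from neurons, had 27 and 4 counts in GFP-HI against 2 and 0 in GFP-NEG and was not tested. The summed counts give a ratio of 5.71 (95% interval 1.45 to 49.2, counting error only), and most of them came from 1 library.

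Of 11 tested partners of oxysterol and bile acid metabolism, 1 was higher and 2 were lower. ACOX2, a peroxisomal oxidase that shortens bile acid side chains, was at 19.7 and 46.8 CPM in GFP-HI and 12.0 and 2.85 CPM in GFP-NEG (2.18 ± 0.58 SE, adjusted p of 0.0010, edgeR), with an adjusted p of 0.21 without GFP-HI replicate 2 and 0.24 without GFP-NEG replicate 2. GPR183 was at 9.79 and 33.7 CPM against 140 and 359 CPM (-3.52 ± 0.64 SE; between -4.62 without GFP-HI replicate 2 and -2.69 without GFP-NEG replicate 2). The sterol exporter ABCG1 was at 3.67 and 0.248 CPM against 24.8 and 12.4 CPM (-3.23 ± 0.73 SE; -6.11 without GFP-HI replicate 1 and -2.31 without GFP-HI replicate 2).

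Of the 3 vitamin D genes, 2 were tested and neither passed the threshold. In each of the 3 both GFP-NEG libraries lay above both GFP-HI libraries, as they did for 42% of all tested genes. CYP2R1, which makes the circulating form of vitamin D, was at 3.76 and 4.51 CPM in GFP-HI and at 10.9 and 8.33 CPM in GFP-NEG (log2 fold change -1.21 ± 0.78 SE, adjusted p of 0.23, edgeR). CYP27B1, which makes the active hormone, was at 2.08 and 3.17 CPM against 4.19 and 4.49 CPM (-0.72 ± 1.01 SE, adjusted p of 0.62). CYP24A1, the inactivating enzyme and a direct target of the vitamin D receptor, had 0 and 0 counts in GFP-HI against 3 and 16 in GFP-NEG, at least 17.2-fold lower at the floor of 3 counts over the group, and was not tested. The receptor gene VDR did fall, from 28.4 and 24.3 CPM in GFP-NEG to 3.58 and 1.74 CPM in GFP-HI (-3.30 ± 0.65 SE, adjusted p of 1.3e-05, edgeR). It was the 1 gene called among 6 tested of the vitamin D list.

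Of the 4 steroid hormone genes, 1 was higher and 1 lower in GFP-HI, and CYP11A1 (0 counts in every library) and CYP17A1 (1 count in GFP-HI replicate 1) were not tested. CYP11A1 starts steroid synthesis from cholesterol, and CYP17A1 leads towards cortisol and sex steroids. CYP21A2, the adrenal steroid hydroxylase of cortisol and aldosterone synthesis, was at 12.0 and 24.1 CPM in GFP-HI and at 3.11 and 1.53 CPM in GFP-NEG. Both reporter-bright libraries were above both others. CYP21A2 rose by 2.98 ± 0.73 (SE) on the log2 scale (adjusted p of 3.2e-04, edgeR), and by 2.41 without GFP-HI replicate 2 (adjusted p of 0.084). The authors' deposited table gives 2.97 and an adjusted p of 9.4e-04.

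The CYP21A2 gene overlaps TNXB, which encodes the connective tissue glycoprotein tenascin-X, over 492 bases in the RefSeq annotation. TNXB was higher in GFP-HI as well, at 328 and 353 CPM against 99.5 and 70.6 CPM, a log2 fold change of 2.00 ± 0.65 (SE; adjusted p of 0.0076, edgeR; 0.053 without GFP-NEG replicate 1 and 0.24 without GFP-NEG replicate 2). CYP21A2 held 3.53% (95% exact binomial interval 3.13 to 3.98) and 6.41% (5.87 to 6.98) of the counts of the pair in GFP-HI, and 3.03% (1.86 to 4.63) and 2.13% (1.17 to 3.54) in GFP-NEG. These intervals again cover counting error only, so they do not test the groups. This overlap too is of gene spans, and reads of the 2 genes from any shared exon could not be told apart. The part of TNXB in the CYP21A2 counts was not tested. The 8 adrenal and gonadal genes in the tables summed to 47.0 and 34.8 CPM in GFP-HI and to 33.4 and 44.1 CPM in GFP-NEG. Nearly all of this came from the 2 that were tested, AMH (34.0 and 12.4 CPM in GFP-HI) and STAR (12.4 and 22.0 CPM). Neither passed the threshold, and 4 of the 8 had no count in either GFP-HI library.

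**Figure D4:**
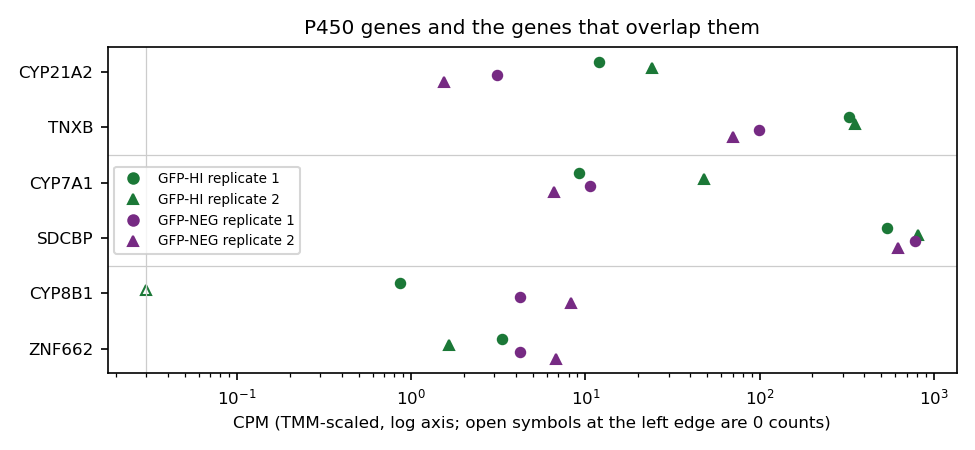
CPM in each library, on a log axis, of CYP21A2, CYP7A1 and CYP8B1 and of the gene that overlaps each of them in the RefSeq annotation; colour gives the group, shape the replicate, and the open symbol 0 counts. TNXB and CYP21A2 are both higher in the GFP-HI libraries, SDCBP lies between 542 and 817 CPM in all 4 libraries, and CYP7A1 is high in GFP-HI replicate 2 alone.

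CYP19A1, the aromatase that makes oestrogens, was without a count in GFP-HI and had 5 and 25 in GFP-NEG, at least 27.1-fold lower at the floor of 3 counts over the group (adjusted p of 2.0e-04, edgeR; 0.32 without GFP-NEG replicate 2 and 0.077 with DESeq2 and the replicate block). CYP19A1 passed the count filter through GFP-NEG alone. It was not tested with a filter of 1 CPM in 2 libraries or with GFP-HI thinned to the GFP-NEG depth. RefSeq lists 3 aromatase genes in the pig, and the tables hold 1 row named for them. Among 9 tested steroid hormone enzymes outside the P450 family, 3 were higher and 1 was lower, against 8.35% and 27.6% of all tested genes. HSD11B1, which regenerates cortisol from cortisone, was at 138 and 388 CPM in GFP-HI and at 58.1 and 9.10 CPM in GFP-NEG (log2 fold change 2.97 ± 0.63 SE, adjusted p of 5.1e-05, edgeR; 4.85 without GFP-NEG replicate 1, 2.05 with GFP-HI replicate 2 left out, and 2.18 with an adjusted p of 0.13 without GFP-NEG replicate 2). HSD11B2, which runs the opposite reaction, was at 53.9 and 18.8 CPM against 6.52 and 3.62 CPM (2.85 ± 0.60 SE; 1.96 and an adjusted p of 0.063 without GFP-HI replicate 1). HSD17B1, an oestradiol-forming enzyme, was at 46.4 and 43.4 CPM against 22.5 and 9.32 CPM (1.501 ± 0.54 SE, adjusted p of 0.017, edgeR), a call lost under 7 alternatives, including removal of GFP-HI replicate 1 (0.066), GFP-HI replicate 2 (0.059) or GFP-NEG replicate 2 (0.45).

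CYP20A1, an orphan P450 with no settled substrate, was at 137 and 175 CPM in GFP-HI and at 90.8 and 46.7 CPM in GFP-NEG. Both reporter-bright libraries were above both others, but the log2 fold change of 1.18 ± 0.57 (SE) was not past the threshold (adjusted p of 0.092, edgeR). It did not pass with any 1 library left out.

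Of the transcription factors that control P450 genes, 18 of 19 were tested, with 1 higher and 4 lower in GFP-HI (1 lower without GFP-NEG replicate 2). AHR, the receptor behind CYP1 induction, was at 12.7 and 12.7 CPM in GFP-HI and at 45.0 and 52.0 CPM in GFP-NEG (log2 fold change -1.93 ± 0.54 SE, adjusted p of 0.0016, edgeR; 0.071 without GFP-NEG replicate 2). Its partner ARNT moved the other way, with 168 and 386 CPM against 87.6 and 44.3 CPM (2.07 ± 0.62 SE, adjusted p of 0.0039, edgeR; 0.10 without GFP-HI replicate 2 and 0.26 without GFP-NEG replicate 2). AHR targets outside the family did not all move in the same direction. The median log2 fold change of the 7 tested was -0.99, against -0.25 over all tested genes. TIPARP, an AHR-induced repressor of the receptor, fell from 249 and 283 CPM in GFP-NEG to 37.3 and 46.2 CPM in GFP-HI (-2.67 ± 0.63 SE), whereas the quinone reductase NQO1, a target of AHR and NFE2L2, was at 18.1 and 35.1 CPM in GFP-HI against 6.83 and 4.60 CPM (2.22 ± 0.61 SE, adjusted p of 0.0015; 0.11 without GFP-HI replicate 2 and also 0.11 without GFP-NEG replicate 2). The amino acid transporter gene SLC7A5 was at 2.27 and 1.39 CPM against 4.04 and 16.6 CPM (-2.49 ± 0.85 SE, adjusted p of 0.012), a call lost without GFP-HI replicate 1 (0.069), GFP-HI replicate 2 (0.16) or GFP-NEG replicate 2 (0.58; -1.14). Of the 7 tested genes in that list, 1 was higher and 2 were lower.

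Of the 8 tested redox partners of P450 enzymes, 1 was higher in GFP-HI and the other 7 did not pass the threshold. POR, the electron donor of most microsomal P450 enzymes, was at 154 and 68.2 CPM in GFP-HI and at 229 and 84.9 CPM in GFP-NEG, with overlapping groups (log2 fold change -0.50 ± 0.58 SE, adjusted p of 0.54, edgeR). FDX1 and FDXR of the mitochondrial chain had log2 fold changes of -0.06 ± 0.55 and 0.35 ± 0.60 (SE), neither past the threshold. Cytochrome b5 (CYB5A), a modulator of several P450 reactions, was at 108 and 261 CPM against 75.8 and 51.3 CPM (1.54 ± 0.58 SE, adjusted p of 0.026, edgeR). That call was lost under 7 alternatives, among them the replicate block (adjusted p of 0.062) and the removal of GFP-HI replicate 2 (0.36), GFP-NEG replicate 1 (0.092) or GFP-NEG replicate 2 (0.37). In the list for haem synthesis and breakdown, 3 of 9 tested genes were higher (PPOX, FECH and UROD), against 8.35% of all tested genes. None of these 3 calls was kept without GFP-HI replicate 2 (PPOX 0.16, FECH 0.12, UROD 0.39), GFP-NEG replicate 1 (0.11, 0.13 and 0.14) or GFP-NEG replicate 2 (0.14, 0.43 and 0.38).

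A pair of P450-type enzymes of prostanoid synthesis lies outside the naming pattern, and its members moved in opposite directions. TBXAS1, thromboxane synthase, was at 3.90 and 2.73 CPM in GFP-HI and at 72.5 and 35.1 CPM in GFP-NEG (log2 fold change -4.02 ± 0.60 SE, adjusted p of 3.1e-09, edgeR; -3.40 without GFP-NEG replicate 1). PTGIS, prostacyclin synthase, was at 618 and 349 CPM against 124 and 31.1 CPM (2.64 ± 0.70 SE, adjusted p of 8.1e-04; 3.96 without GFP-NEG replicate 1, and 1.96 with an adjusted p of 0.21 without GFP-NEG replicate 2).

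Among phase II and other detoxifying enzymes, 21 were tested, with 6 higher and 2 lower in GFP-HI (1 higher and 1 lower without GFP-NEG replicate 2). The glutathione transferase gene GSTM3 was at 82.0 and 177 CPM in GFP-HI and at 21.9 and 3.51 CPM in GFP-NEG (log2 fold change 3.36 ± 0.58 SE, adjusted p of 4.2e-07, edgeR; 5.20 without GFP-NEG replicate 1, 2.56 without GFP-NEG replicate 2, 2.71 with GFP-HI replicate 2 left out), and GSTA4 was at 138 and 258 CPM against 44.2 and 30.5 CPM (2.40 ± 0.59 SE, adjusted p of 3.3e-04; 0.12 without GFP-NEG replicate 2). The epoxide hydrolase genes EPHX1 and EPHX2 and the transferase gene GSTO1 were also called higher, with log2 fold changes of 1.40, 1.36 and 1.35, and lost their calls under 8, 8 and 10 alternatives. Among these were the removal of GFP-HI replicate 2 (adjusted p of 0.25, 0.31 and 0.57) and of GFP-NEG replicate 2 (0.67, 0.38 and 0.42); EPHX1 also lost its call without GFP-HI replicate 1 (0.070), and EPHX2 and GSTO1 without GFP-NEG replicate 1 (0.093 and 0.090). FMO2, the main flavin monooxygenase of lung, was at 74.2 and 50.8 CPM in GFP-HI and at 366 and 16.0 CPM in GFP-NEG. Its groups overlapped, and its log2 fold change of -1.61 ± 0.58 (SE; adjusted p of 0.019, edgeR) turned to 1.97 without GFP-NEG replicate 1 and was -0.34 with the replicate block (adjusted p of 0.77).

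**Figure D5:**
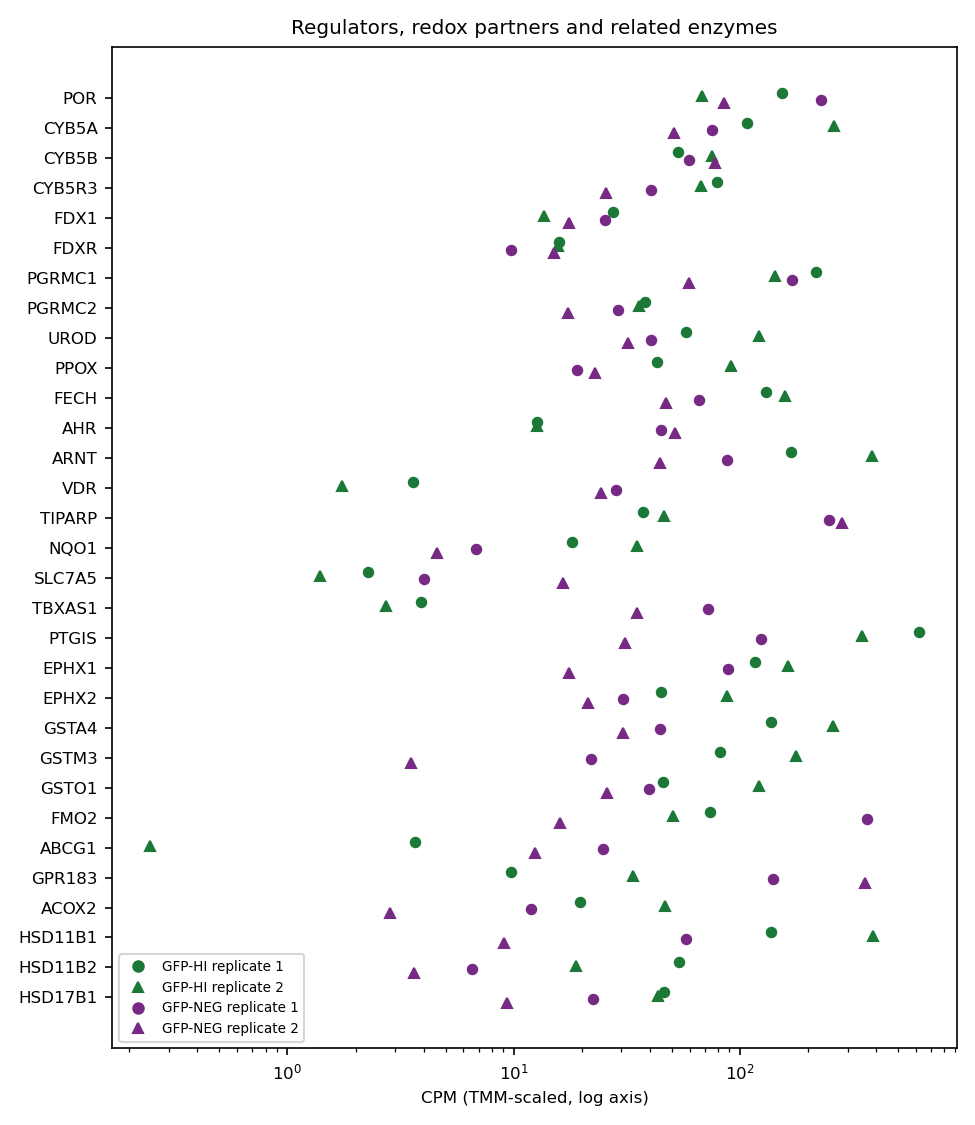
CPM in each library, on a log axis, of the 8 tested redox partners and of the called regulators and related enzymes with a mean of at least 10 CPM in either group; colour gives the group and shape the replicate. VDR, TIPARP, TBXAS1 and GPR183 have both GFP-HI libraries well below both GFP-NEG libraries, and FMO2 has GFP-HI between its 2 GFP-NEG values.

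A list of liver genes was counted as well. Of 12 hepatocyte genes in these data 7 were tested and 3 were lower in GFP-HI, and 2 had no count in either GFP-HI library. The list summed to 28.7 and 23.4 CPM in GFP-HI and to 117 and 45.5 CPM in GFP-NEG. APOA1 made up most of these sums, at 22.5 and 15.3 CPM in GFP-HI and 104 and 25.5 CPM in GFP-NEG. The median log2 fold change of the 7 tested genes was -0.25, as over all tested genes. Of the 35 P450 genes, 8 were at 0 in both GFP-HI libraries and 1 count or more was found for 7 of these in GFP-NEG. The share of all genes with this pattern was not counted. GFP-NEG had counts for more genes in general (24120 and 25985, against 18752 and 18392 in GFP-HI), so this does not set P450 genes apart.

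The authors' deposited table holds 24 of the 35 P450 genes and calls 1 higher (CYP21A2) and 5 lower (CYP2C42, CYP2S1, CYP3A29, CYP4F3 and CYP8B1), where over its 16250 genes 8.2% are called higher and 11.2% lower. These 6 were also called here. CYP1A1 and CYP19A1, called here, are outside that table.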

How the data were processed

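RNA from sorted pig lung cells was sequenced in 4 libraries, 2 GFP-HI and 2 GFP-NEG, grouped by their labels. The authors deposited whole-number read counts per gene for each library, and the submitters' processing notes name featureCounts, Subread 1.5.2 and DESeq2 1.37.6. Aligner and strand setting are not given in the sources used here. For the build there is only an annotation version in the name of the authors' comparison table. The authors also deposited a table of log2 fold changes and adjusted p-values, whose 4 count columns equal the single-library tables; 4 normalised per-sample columns whose headings could not be tied to libraries were left unused. Library totals ran from 6292253 to 24689986 counts.

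Counts were tested in edgeR 4.0.16 (R 4.3.3; TMM scaling, filterByExpr, quasi-likelihood F test, Benjamini-Hochberg adjustment over 19682 genes, threshold 0.05), after a check on simulated data. Alternatives were RLE, upper quartile and library size scaling, other count filters, DESeq2 1.42.0, the replicate block, thinning of GFP-HI, and each library left out. Headings of the authors' table name a pig 1 and a pig 2, and labels number the replicates. Deviations of same-numbered libraries correlated at 0.179 (the check that the numbers pair them, 2 pairs). Values with the block, in edgeR or DESeq2, are given for P450 genes where they change a call. Named genes were P450 genes past the threshold or with a mean of at least 5 CPM in a group, and called genes of the other lists with at least 10 CPM; lower P450 genes are named to account for all 35. Symbols came from the files and, for 844 identifiers, a gene name table; RefSeq (Sscrofa11.1) matched 23 of the 35 and was used for names and neighbours. The P450 genes and the lists were chosen with earlier results of these data known.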

Additional observations from a re-analysis of the deposited data

How the results depend on the processing

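CYP2S1, CYP4F3 and CYP3A29 kept their call in each of the 13 alternatives. The number of P450 genes called higher (2 in the report) was 1 with library size scaling, with DESeq2 and with DESeq2 and the replicate block, and 0 to 3 with 1 library left out. Without GFP-HI replicate 2, where edgeR called 0 higher, DESeq2 called 0 too and 2 had an unadjusted p under 0.05 in edgeR. The number called lower (7) was 3 to 7 with 1 library left out, and with no filter on low counts 3 were higher and 10 lower. With the replicate block 2 were higher and 7 lower, CYP7A1 lost its call (adjusted p of 0.081) and CYP39A1 gained one (0.034), and among other named genes CYB5A, UROD, FECH, GSTO1 and FMO2 lost theirs. With DESeq2 and the block 5 were lower, CYP2C42 (0.069), CYP19A1 (0.077) and CYP7A1 (0.28) lost their calls, and CYP39A1 was at 0.198. With GFP-HI thinned to the GFP-NEG depth, 24 P450 genes were tested and 8 of the 9 called genes kept their call. CYP19A1 was not tested there. Over all 16519 genes tested after thinning, 1198 were called higher and 3616 lower, against 1643 and 5433 of 19682 in the report. The P450 median (-0.23) was 0.23 with the block and -0.50 to 0.38 with 1 library left out. The all-gene median, -0.25 in the report, became -0.58 under upper quartile and -0.68 under library size scaling, and the share of calls that were higher went from 23.2% to 16.1% and 13.4%; P450 values are to be read against those shifts. Values of genes not past the threshold changed sign: CYP2J34 was -0.016 and FDXR -0.11 with library size scaling, FDXR was -0.0059 with upper quartile scaling, and CYP4B1 was 0.26 with the block and 0.22 with DESeq2 and the block. With 1 library left out CYP2J34 ran from -0.045 to 1.05, CYP4B1 from -0.81 to 1.35, CYP27A1 from -0.85 to 0.37, CYP7B1 from -0.032 to 2.95, POR from -1.14 to 0.39, CYB5B from -0.33 to 0.20, FDX1 from -0.58 to 0.38, SDCBP from -0.35 to 0.28 and the called gene FMO2 from -2.55 to 1.97. The cause of these changes was not tested. Fewer libraries leave a wider error, and 9 P450 genes had too few counts to be tested.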
